A study of Penicillium oxalicum with 6 samples.

Results

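Glycoside hydrolases (GHs) cut or rearrange the bonds between sugars, and a filamentous fungus carries many of them that work on its own wall, glycoproteins and reserves instead of on plant material. The 44 genes described here are such candidates in *Penicillium oxalicum*, out of 9834 genes measured. They were chosen from the 1114 differentially expressed genes that the study listed for the mutant Δ*PoxMKK1* against Δ*PoxKu70*: each carries a GH family in that list, none has an entry in its column of plant cell-wall-degrading enzymes (CWDEs), and the amylase genes *POX01356* and *POX09352* are left out. Since a probability and a fold change between the same 6 libraries decided which genes entered the list, every difference between the strains below is a description of selected genes, and where a gene is said to pass a threshold, that selection had already favoured it. The 44 genes belong to 25 GH families, counting *POX08881*, which is assigned to GH105 and GH76, under GH76.

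Δ*PoxMKK1* is a strain in which *PoxMKK1* (*POX07948*), coding for a mitogen-activated protein kinase kinase of the Ste7 type, was replaced by a G418 resistance gene, and the parent in which this was done, Δ*PoxKu70*, served as control. Both strains are described as carrying a hygromycin resistance gene in place of *POX01583*, the homologue of *Ku70*, a gene of non-homologous end joining. Mycelia were pre-grown on glucose and then kept for 24 h in medium with 2% Avicel, a microcrystalline cellulose, and mRNA was sequenced in 3 libraries per strain, labelled F, S and T. The study calls them biological repeats, and which transformants were sequenced is not given in the sources used here.

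As background, the wall of an ascomycete such as *P. oxalicum* is a mesh of β-1,3-glucan and chitin, usually with α-1,3-glucan and an outer layer of mannoproteins. Growth, branching, septation, spore formation and the recycling of old hyphae all require that this mesh be opened and joined again. Chitinases and β-N-acetylhexosaminidases act on chitin, several GH families act on β-1,3-glucan as hydrolases or as transglycosylases that join chains, and α-1,3-glucanases (mutanases) act on α-1,3-glucan. Mannosidases trim the sugar trees of secreted proteins, and trehalases and α-glucosidases act on reserve or food sugars.

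The libraries held between 13687087 and 14042791 expected counts, which are estimated reads per gene that need not be whole. The expected counts of *PoxMKK1* for replicates F, S and T were 2, 1 and 0 in Δ*PoxMKK1* and 656, 592 and 753 in Δ*PoxKu70*. *POX01583* had between 942 and 1365 expected counts in the 6 libraries, although it is described as replaced in both strains. The cellobiohydrolase gene *cbh2* (*POX04786*), a marker of mycelium growing on cellulose, stood at 1962, 1118 and 1573 FPKM in Δ*PoxMKK1*, against 4499, 4296 and 3462 FPKM in Δ*PoxKu70*. Levels below are in FPKM, a read count divided by gene length and library size, always in the order F, S and T, and log2 fold changes of Δ*PoxMKK1* over Δ*PoxKu70* come from edgeR with a standard error. In bulk mycelium, fewer cells of one kind and less RNA per cell cannot be told apart.

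Of the 44 genes, 27 were higher and 17 were lower in Δ*PoxMKK1*, and for each of them the 3 libraries of one strain lay wholly above those of the other. All 44 passed edgeR's threshold of 0.05 for the adjusted p together with a difference of at least 1 on the log2 scale. Across the 8749 genes tested, that threshold was passed by 19.8%, with 10.8% higher and 8.93% lower, and values did not overlap in 59.0%; nothing is read from the contrast with the 44 genes, which were selected on it. Their log2 fold changes ran from -2.99 for *POX02710* to 7.00 for *POX09621*, with a median of 1.49, beside a median of 0.01 over all genes tested. The smallest change that still met the study's fold minimum was that of *POX01158*, where the log2 ratio of mean FPKM was -1.02, followed by *POX00251* at 1.15. A replicate-noise probability recomputed from the FPKM was lowest for *POX07641*, at 0.809, against the minimum of 0.8. Just outside, among genes whose GH family is not given in the sources used here, *POX06902* had a log2 ratio of -0.999 and *POX08147* had a probability of 0.7996.

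**Figure D1:**
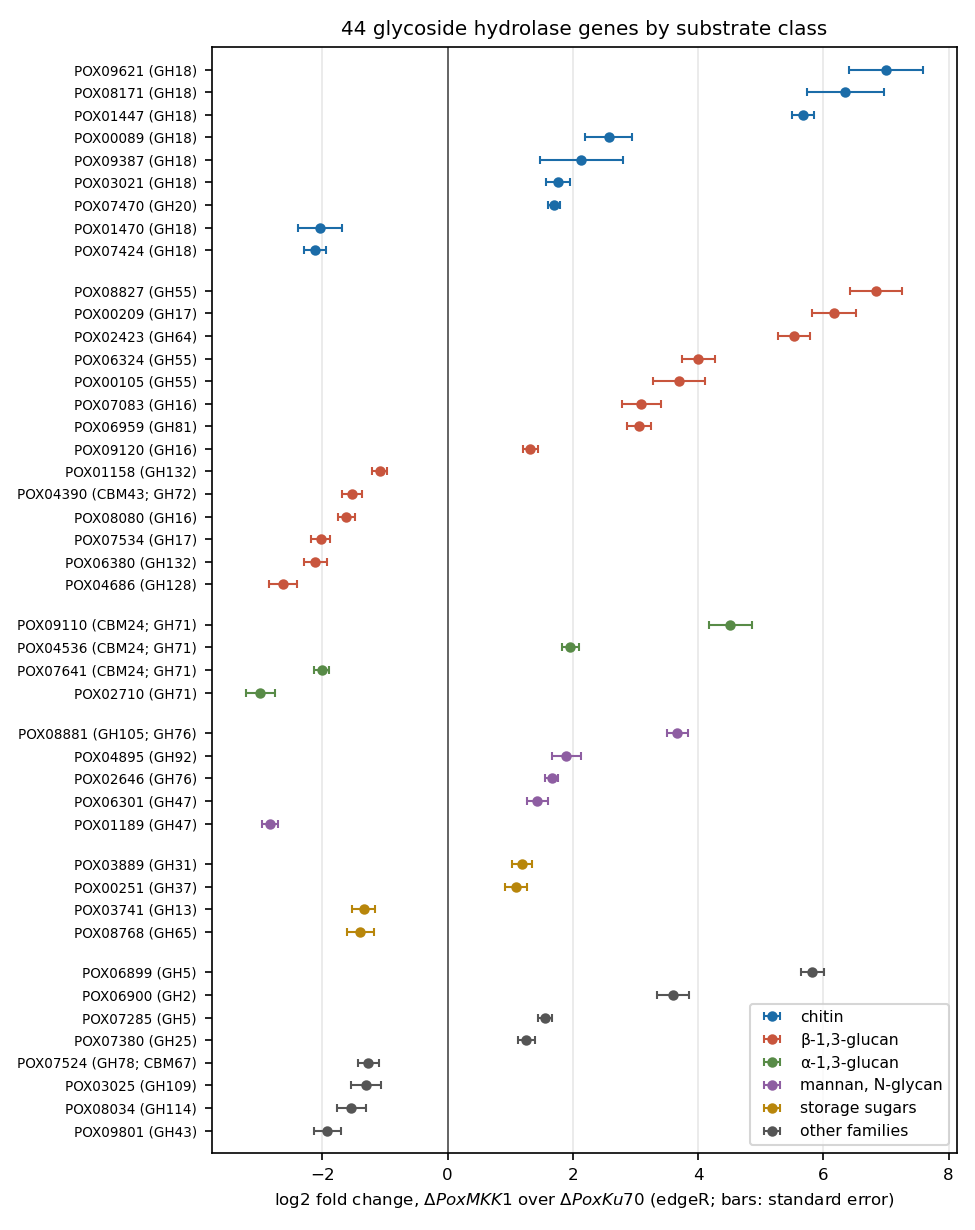
Difference between the strains for 44 genes, as log2 of Δ*PoxMKK1* over Δ*PoxKu70*, on the horizontal axis (points: edgeR estimate; bars: standard error), with genes grouped by the polymer that their family mostly acts on. In every group some genes lie right of 0 (27 in all, up to 7.00) and others left of it (17 in all, down to -2.99).

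Although most of the genes differed several-fold, their summed transcript level was similar in the strains. The 44 genes together gave 6534, 7115 and 6544 FPKM in Δ*PoxMKK1*, against 5797, 6773 and 6503 FPKM in Δ*PoxKu70*, so the ranges overlapped. What differed was which genes made up that sum. The 27 higher genes together had 4992 ± 384 FPKM in Δ*PoxMKK1* and 735 ± 209 FPKM in Δ*PoxKu70* (SD, n = 3 each), and the 17 lower genes had 1740 ± 81.7 FPKM in Δ*PoxMKK1* and 5622 ± 550.4 FPKM in Δ*PoxKu70*. The most abundant of the 44 in Δ*PoxMKK1* was the GH18 gene *POX00089*, with 18.5% of their summed mean FPKM, followed by the GH64 gene *POX02423* with 7.87%. In Δ*PoxKu70* the GH17 gene *POX07534* led with 25.0% and the GH132 gene *POX01158* followed with 12.4%. Under 10 FPKM on average lay 5 of the 44 genes in Δ*PoxMKK1* and 12 in Δ*PoxKu70*, and 2 of those in Δ*PoxKu70* lay under 1 FPKM.

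Chitin-degrading families held 9 of the 44 genes, and their summed level was higher in Δ*PoxMKK1*. Of 8 GH18 genes, 6 were higher and 2 lower in Δ*PoxMKK1*, and the single GH20 gene was higher. GH18 holds the fungal chitinases and also endo-β-N-acetylglucosaminidases that act on glycoproteins. *POX00089*, the most abundant of them in Δ*PoxMKK1*, whose InterPro entries name a chitinase catalytic and insertion domain, had 1138, 1454 and 1141 FPKM in Δ*PoxMKK1*, against 159.7, 119.6 and 327 FPKM in Δ*PoxKu70*. Its log2 fold change was 2.57 (standard error 0.372), or 5.94-fold, and its control libraries differed among themselves, with replicate T the highest. *POX03021*, with the same domain entries, had 228, 302 and 299 FPKM in Δ*PoxMKK1*, against 81.8, 59.3 and 93.9 FPKM in Δ*PoxKu70*, which gave a log2 fold change of 1.76 (standard error 0.195). Among the 6 GH18 genes that were higher in the mutant, these 2 had the highest levels in the control.

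The other 4 higher GH18 genes averaged under 10 FPKM in Δ*PoxKu70*. *POX09621*, again with the chitinase insertion domain, had 88.5, 56.3 and 42.4 FPKM in Δ*PoxMKK1*, against 0.66, 0.00 and 0.73 FPKM in Δ*PoxKu70*, for which edgeR gave a log2 fold change of 7.00 (standard error 0.595). In counts this was 1601, 1014 and 759 in Δ*PoxMKK1* and 12, 0 and 13 in Δ*PoxKu70*, so the size of its fold depends on very few reads in the control. *POX08171*, whose entries include a chitin-binding type-1 domain beside the catalytic one, had 222, 206 and 219 FPKM in Δ*PoxMKK1*, against 1.97, 0.55 and 5.11 FPKM in Δ*PoxKu70*. The 3 mutant libraries of *POX08171* lay close together while the control libraries spread over a wide range, and the edgeR estimate of 6.35 (standard error 0.618) became 7.31 without replicate T of Δ*PoxKu70*. *POX01447*, which lacks the insertion domain entry, had 213, 184 and 182 FPKM in Δ*PoxMKK1*, against 4.28, 3.4 and 3.12 FPKM in Δ*PoxKu70*, which gave a log2 fold change of 5.68 (standard error 0.176) with little spread in either strain. *POX09387* had 19.6, 27.4 and 15.8 FPKM in Δ*PoxMKK1*, against 1.57, 1.8 and 10.5 FPKM in Δ*PoxKu70*. Replicate T of Δ*PoxKu70* stood apart here, far above the other control libraries, and the log2 fold change of 2.14 (standard error 0.659) became 3.53 without it. This gene was the least settled of the 44: leaving out any 1 of the other 5 libraries took it below edgeR's threshold, with log2 fold changes from 1.73 to 2.31.

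The 2 GH18 genes that were lower in Δ*PoxMKK1* were *POX01470* and *POX07424*. *POX01470*, the most abundant chitin-class gene in the control, had 65, 92.6 and 122 FPKM in Δ*PoxMKK1*, against 244, 538 and 315 FPKM in Δ*PoxKu70*, which gave a log2 fold change of -2.04 (standard error 0.354). *POX07424*, with chitinase catalytic and insertion domain entries, had 9.77, 8.66 and 9.84 FPKM in Δ*PoxMKK1*, against 31.1, 48.9 and 38.04 FPKM in Δ*PoxKu70*, which gave a log2 fold change of -2.12 (standard error 0.173). Both were thus lower in every mutant library than in any control library, with replicate S the highest of the control in each. The GH20 gene *POX07470* codes for a member of the β-N-acetylhexosaminidase family, which releases N-acetylglucosamine from chitin fragments. It had 67.3, 61.2 and 59.8 FPKM in Δ*PoxMKK1*, against 19.2, 17.4 and 19.1 FPKM in Δ*PoxKu70*, which gave a log2 fold change of 1.70 (standard error 0.0925), the tightest estimate among the 44 genes. Summed over the 9 genes of GH18 and GH20, the level was 2052, 2393 and 2092 FPKM in Δ*PoxMKK1*, against 545, 789.1 and 812 FPKM in Δ*PoxKu70*, which is a ratio of means of 3.05. Much of each sum came from 1 gene: *POX00089* held 57.1% of it in Δ*PoxMKK1*, and *POX01470* held 51.1% in Δ*PoxKu70*. From counts scaled by library size and edgeR's TMM factors, which are not divided by gene length, the log2 ratio of the class was 0.91 in place of 1.61. The size of the shift between the strains thus depends on the scale.

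**Figure D2:**
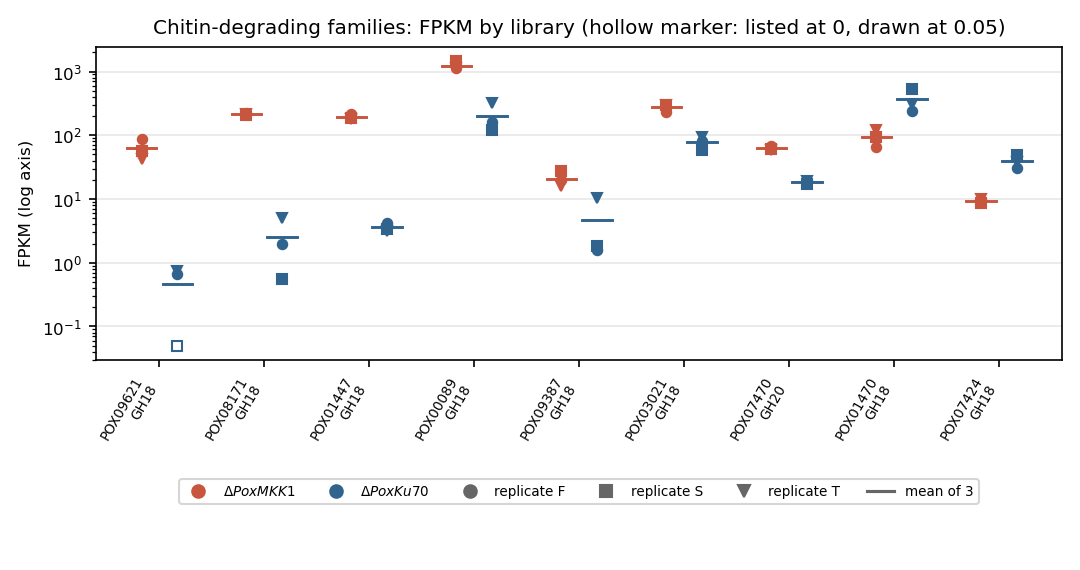
FPKM on a log axis of the 8 GH18 genes and the GH20 gene in each library (Δ*PoxMKK1* left and Δ*PoxKu70* right for each gene; marker shapes: replicates F, S and T; lines: means). For 7 genes all points of Δ*PoxMKK1* lie above those of Δ*PoxKu70*, for *POX01470* and *POX07424* below, and *POX09621* is listed at 0 in replicate S of Δ*PoxKu70* (hollow marker, drawn at 0.05).

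Genes linked to chitin outside the GH families also went both ways. The list was that of the study's differentially expressed genes in families AA11, CBM18, CBM50 and CE9, so they were selected on the same contrast, and 3 were higher and 3 lower in Δ*PoxMKK1*. *POX05645*, of AA11, a family of lytic polysaccharide monooxygenases that cleave chitin by oxidation, had 374, 283 and 268 FPKM in Δ*PoxMKK1*, against 2.14, 0.75 and 2.86 FPKM in Δ*PoxKu70*. *POX05537*, with a CBM50 (LysM) chitin-binding module, had 193, 160.4 and 133 FPKM in Δ*PoxMKK1*, against 1.41, 0.95 and 2.14 FPKM in Δ*PoxKu70*. These 2 genes had log2 fold changes of 7.27 and 6.69, beside 7.00, 6.35 and 5.68 for the GH18 genes *POX09621*, *POX08171* and *POX01447*. In contrast, *POX07482*, also with CBM50, and *POX07423*, with CBM18 and LysM entries and an identifier next to the GH18 gene *POX07424*, had -2.61 and -2.49. *POX05700*, coding for an N-acetylglucosamine-6-phosphate deacetylase of CE9, had 1.05, and *POX02977*, also CE9 but with allantoinase among its InterPro entries, had -1.60.

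Transcripts of conidiation regulators were also higher in Δ*PoxMKK1*. *PoxBrlA* (*POX06534*), the central activator of asexual spore formation, had 460.4, 394 and 379 FPKM in Δ*PoxMKK1*, against 29.4, 5.38 and 42.2 FPKM in Δ*PoxKu70*. *PoxAbaA* (*POX07025*), which acts in phialide differentiation, had 105, 92.2 and 87.8 FPKM in Δ*PoxMKK1*, against 4.4, 3.88 and 3.32 FPKM in Δ*PoxKu70*. *PoxFlbD* (*POX07099*), an upstream activator, had 415, 509.7 and 448 FPKM in Δ*PoxMKK1*, against 165, 117 and 211 FPKM in Δ*PoxKu70*. All 3 markers were higher in Δ*PoxMKK1*, but the study had named them from its differentially expressed genes. Their direction was thus fixed by selection on the same contrast and is described only. Across all genes tested, 10.8% were called higher. The summed level of the 3 markers was 915 to 996 FPKM in Δ*PoxMKK1* and 127 to 256 FPKM in Δ*PoxKu70*, and none was at 0 in the control. As in several of the GH18 genes, replicate T of Δ*PoxKu70* was the highest and replicate S the lowest control library for *PoxBrlA* and *PoxFlbD*, whereas replicate T was the lowest for *PoxAbaA*. Of all 947 genes called higher, 56.1% also had replicate T as the highest control library, and 53.0% had replicate S as the lowest. The part of these 3 regulators in the differences of the 44 genes was not tested.

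Genes of families that act on β-1,3-glucan split into a set of 8 that were higher in Δ*PoxMKK1* and a set of 6 that were lower. The higher set comprised the single genes of GH64 and GH81, all 3 genes of GH55, 2 of 3 in GH16 and 1 of 2 in GH17. GH64 enzymes release short oligosaccharides from β-1,3-glucan, and *POX02423* of that family had 466, 642 and 481 FPKM in Δ*PoxMKK1*, against 12.1, 7.94 and 12.8 FPKM in Δ*PoxKu70*, which gave a log2 fold change of 5.54 (standard error 0.255). It was the second most abundant of the 44 genes in the mutant. *POX06959* belongs to GH81, a family of endo-β-1,3-glucanases, one of which acts in the separation of daughter cells in *Saccharomyces cerevisiae*. It had 110.2, 135 and 109 FPKM in Δ*PoxMKK1*, against 14.1, 10.4 and 16.3 FPKM in Δ*PoxKu70*, which gave a log2 fold change of 3.06 (standard error 0.189).

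GH55 holds exo- and endo-β-1,3-glucanases of filamentous fungi. *POX00105*, the most abundant of the 3, had 305, 344 and 285 FPKM in Δ*PoxMKK1*, against 19.9, 11.6 and 37.7 FPKM in Δ*PoxKu70*. *POX06324* had 165, 128 and 96.4 FPKM in Δ*PoxMKK1*, against 7.27, 6.24 and 9.72 FPKM in Δ*PoxKu70*. *POX08827* had 54.4, 46.6 and 38.7 FPKM in Δ*PoxMKK1*, against 0.38, 0.1 and 0.68 FPKM in Δ*PoxKu70*. All 3 were low in Δ*PoxKu70* and at least several-fold higher in every library of Δ*PoxMKK1*, with log2 fold changes of 3.70 (standard error 0.416) for *POX00105*, 4.01 (standard error 0.259) for *POX06324* and 6.84 (standard error 0.416) for *POX08827*. For *POX00105* and *POX08827* replicate T of Δ*PoxKu70* was again the highest control library and replicate S the lowest. With *POX08827* at under 1 FPKM in each control library, its log2 value was 5.11 in limma with a pseudocount of 1 FPKM and 7.47 in edgeR without replicate T of Δ*PoxKu70*.

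GH17 and GH16 each held genes of opposite direction. GH17 enzymes cut β-1,3-glucan or transfer it to other chains, as the wall protein Bgl2 of *S. cerevisiae* does. *POX00209* had 269.9, 247 and 245 FPKM in Δ*PoxMKK1*, against 4.08, 1.57 and 4.49 FPKM in Δ*PoxKu70*, which gave a log2 fold change of 6.17 (standard error 0.356). In contrast, *POX07534*, the most abundant of the 44 genes in the control, had 414, 403 and 402 FPKM in Δ*PoxMKK1*, against 1432, 1816 and 1515 FPKM in Δ*PoxKu70*, which gave a log2 fold change of -2.03 (standard error 0.156). The family sum was lower in Δ*PoxMKK1*, at 660.1 ± 20.5 FPKM against 1591 ± 201 FPKM in Δ*PoxKu70* (SD, n = 3 each), although one of its genes was far higher there. GH16 is a broad family that includes the Crh transglycosylases, which link chitin to β-glucan in yeasts, and various β-glucanases, and the entries do not tell which kind each gene is. *POX07083* had 84.3, 104 and 89.5 FPKM in Δ*PoxMKK1*, against 9.94, 5.92 and 15.4 FPKM in Δ*PoxKu70*. *POX09120* had 44.1, 41.4 and 40.4 FPKM in Δ*PoxMKK1*, against 13.5, 16.4 and 18.6 FPKM in Δ*PoxKu70*. Both were higher in Δ*PoxMKK1*, with log2 fold changes of 3.10 (standard error 0.306) for *POX07083* and 1.32 (standard error 0.1199) for *POX09120*. *POX08080*, by far the most abundant GH16 gene in the control, had 218, 217 and 241 FPKM in Δ*PoxMKK1*, against 670.1, 728 and 584 FPKM in Δ*PoxKu70* and was lower in Δ*PoxMKK1*, with -1.62 (standard error 0.136).

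The remaining β-1,3-glucan genes were all lower in Δ*PoxMKK1*. *POX04390*, of GH72 with a CBM43 module, belongs to the β-1,3-glucanosyltransferases that elongate wall glucan (Gas proteins in yeast). It had 162, 151 and 176 FPKM in Δ*PoxMKK1*, against 390.4, 541 and 413 FPKM in Δ*PoxKu70*, which gave a log2 fold change of -1.52 (standard error 0.161). GH132 is the SUN family, known in *S. cerevisiae* from septation and wall assembly, and *POX01158* had 387, 378 and 399 FPKM in Δ*PoxMKK1*, against 712, 804 and 851 FPKM in Δ*PoxKu70*, with a log2 fold change of -1.08 (standard error 0.1201), the smallest decrease of the 44. The other GH132 gene, *POX06380*, was expressed at a much lower level, with 7.49, 9.53 and 10.1 FPKM in Δ*PoxMKK1*, against 32.2, 45.9 and 33.9 FPKM in Δ*PoxKu70*, and had a larger change of -2.11 (standard error 0.184). *POX04686*, of GH128, a family of β-1,3-glucanases, had 62.7, 56.5 and 81.2 FPKM in Δ*PoxMKK1*, against 320.3, 349.6 and 524 FPKM in Δ*PoxKu70*, which gave a log2 fold change of -2.63 (standard error 0.223).

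Summed over all 14 genes of these families the level was lower in Δ*PoxMKK1*, with 2749, 2903 and 2695 FPKM against 3639, 4344 and 4036 FPKM in Δ*PoxKu70*, although more genes were higher than lower. This lower sum depends largely on 1 gene, *POX07534*, which held 39.6% of the class in Δ*PoxKu70*. It averaged 406 FPKM in Δ*PoxMKK1* and 1588 FPKM in Δ*PoxKu70*. The 8 higher genes together had 1524 ± 153 FPKM in Δ*PoxMKK1* and 85.7 ± 28.1 FPKM in Δ*PoxKu70*, and the 6 lower ones 1258 ± 48.1 FPKM in Δ*PoxMKK1* and 3921 ± 363 FPKM in Δ*PoxKu70* (SD, n = 3 each). In the control the lower set thus held nearly all of the class, and in the mutant the higher set was somewhat the larger.

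**Figure D3:**
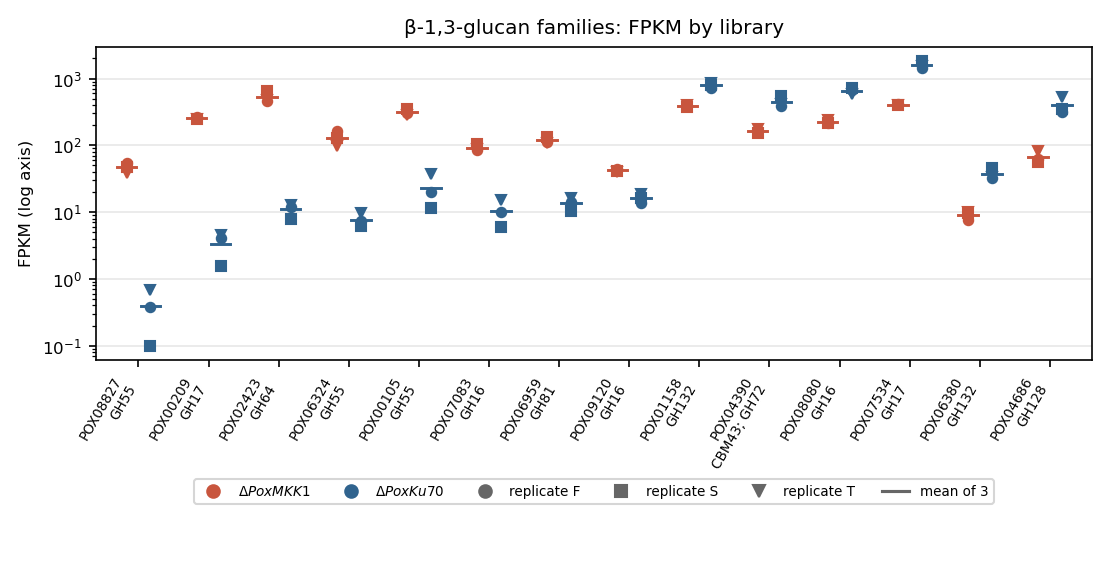
FPKM on a log axis of the 14 genes of β-1,3-glucan families in each library (Δ*PoxMKK1* left and Δ*PoxKu70* right for each gene; marker shapes: replicates F, S and T; lines: means). The 8 genes on the left were higher in Δ*PoxMKK1* and mostly low in Δ*PoxKu70*, and the 6 on the right were lower in Δ*PoxMKK1*, with *POX07534* the highest of all at 1588 FPKM on average in Δ*PoxKu70*.

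Among the 4 GH71 genes, whose family consists of α-1,3-glucanases, 2 were higher and 2 lower in Δ*PoxMKK1*. Of these, 3 carry CBM24, a module that binds α-1,3-glucan. *POX09110*, with CBM24, had 85.2, 138 and 103 FPKM in Δ*PoxMKK1*, against 4.61, 2.68 and 6.4 FPKM in Δ*PoxKu70*, which gave a log2 fold change of 4.51 (standard error 0.342). *POX04536*, also with CBM24, had 63.6, 68.9 and 77.98 FPKM in Δ*PoxMKK1*, against 14.6, 17.4 and 19.9 FPKM in Δ*PoxKu70*, which gave a log2 fold change of 1.96 (standard error 0.139). In the opposite direction, *POX02710*, without CBM24, had 12.8, 8.52 and 8.57 FPKM in Δ*PoxMKK1*, against 73.1, 58.8 and 96.5 FPKM in Δ*PoxKu70*, which gave a log2 fold change of -2.99 (standard error 0.236), the largest decrease of the 44 genes. *POX07641*, with CBM24, had 4.68, 5.34 and 5.94 FPKM in Δ*PoxMKK1*, against 20.9, 18.7 and 22.2 FPKM in Δ*PoxKu70*, which gave a log2 fold change of -2.01 (standard error 0.117). Its InterPro entries also name a subtilisin-type peptidase, so this gene model is not certain to code for a glucanase alone. The presence of the module thus did not separate the directions. The leading GH71 gene was *POX09110* in Δ*PoxMKK1*, with 55.9% of the family's mean FPKM, and *POX02710* in Δ*PoxKu70*, with 64.2%.

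Families that act on mannose residues held 5 genes, of which 4 were higher in Δ*PoxMKK1*. GH47 α-1,2-mannosidases trim N-glycans in the secretory pathway. *POX06301* of this family averaged 305 ± 43.7 FPKM in Δ*PoxMKK1* and 109 ± 17.5 FPKM in Δ*PoxKu70* (SD, n = 3 each), a log2 fold change of 1.43 (standard error 0.165). The other GH47 gene, *POX01189*, had 70.1, 61.3 and 62.4 FPKM in Δ*PoxMKK1*, against 447, 472 and 414 FPKM in Δ*PoxKu70*, which gave a log2 fold change of -2.84 (standard error 0.129), so that this family, too, held a gene in each direction. GH76 holds α-1,6-mannanases, among them the yeast proteins Dfg5 and Dcw1 that help to anchor wall proteins, and *POX02646* averaged 68.8 ± 5.58 FPKM in Δ*PoxMKK1* and 20.8 ± 1.9 FPKM in Δ*PoxKu70* (SD, n = 3 each), a log2 fold change of 1.66 (standard error 0.105). *POX08881* was assigned to GH76 and to GH105, a family of unsaturated glycuronyl hydrolases of pectin breakdown, and its entries also name an alcohol dehydrogenase. It had 61.5, 57.4 and 60.6 FPKM in Δ*PoxMKK1*, against 4.51, 5.38 and 3.56 FPKM in Δ*PoxKu70*, which gave a log2 fold change of 3.67 (standard error 0.166). The GH92 gene *POX04895*, of an α-mannosidase family, averaged 123 ± 25.4 FPKM in Δ*PoxMKK1* and 31.6 ± 7.695 FPKM in Δ*PoxKu70* (SD, n = 3 each), a log2 fold change of 1.90 (standard error 0.231). The summed level of the 5 genes was nearly equal in the strains, with 621 ± 72.0 FPKM in Δ*PoxMKK1* and 609.7 ± 6.48 FPKM in Δ*PoxKu70*, with the abundant *POX01189* lower and the others higher.

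The 4 genes of families that act on reserve or food sugars had log2 fold changes between -1.39 and 1.19. Trehalose is a reserve sugar and stress protectant of fungi, and its hydrolysis is the known role of GH37. The GH37 gene *POX00251*, whose entries name the calcium-binding domain of neutral trehalases, averaged 82.2 ± 7.54 FPKM in Δ*PoxMKK1* and 36.99 ± 9.33 FPKM in Δ*PoxKu70* (SD, n = 3 each), a log2 fold change of 1.09 (standard error 0.176) that came to 0.96, under the fold minimum, without replicate S of Δ*PoxKu70*. *POX08768*, of GH65, which includes the acid trehalases, went the other way, with 92.1 ± 23.9 FPKM in Δ*PoxMKK1* and 232 ± 18.7 FPKM in Δ*PoxKu70* (SD, n = 3 each), a log2 fold change of -1.39 (standard error 0.212). *POX03889*, of GH31, a family of α-glucosidases, averaged 49.9 ± 8.39 FPKM in Δ*PoxMKK1* and 20.98 ± 3.54 FPKM in Δ*PoxKu70* (SD, n = 3 each), a log2 fold change of 1.19 (standard error 0.158). *POX03741*, of GH13, the α-amylase and α-glucosidase family, averaged 16.8 ± 3.42 FPKM in Δ*PoxMKK1* and 40.8 ± 7.06 FPKM in Δ*PoxKu70* (SD, n = 3 each), a log2 fold change of -1.34 (standard error 0.183). Each of the directions was thus taken by 1 trehalase-family gene and 1 gene of an α-glucosidase or α-amylase family.

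The last 8 genes are of mixed families. *POX06899* and *POX06900* carry consecutive identifiers and were both strongly higher in Δ*PoxMKK1*. *POX06899*, of GH5, which spans exo-β-1,3-glucanases, mannanases and cellulases, had 186, 215 and 229.9 FPKM in Δ*PoxMKK1*, against 3.01, 4.3 and 3.32 FPKM in Δ*PoxKu70*, which gave a log2 fold change of 5.82 (standard error 0.1798). *POX06900*, of GH2, a family of β-galactosidases, β-mannosidases and β-glucuronidases, had 93.01, 116 and 98.5 FPKM in Δ*PoxMKK1*, against 8.43, 5.22 and 10.7 FPKM in Δ*PoxKu70*, which gave a log2 fold change of 3.60 (standard error 0.256). The second GH5 gene, *POX07285*, averaged 30.2 ± 2.91 FPKM in Δ*PoxMKK1* and 9.88 ± 0.707 FPKM in Δ*PoxKu70* (SD, n = 3 each), a log2 fold change of 1.55 (standard error 0.115). *POX07380*, of the lysozyme family GH25, averaged 181 ± 27.1 FPKM in Δ*PoxMKK1* and 72.6 ± 8.02 FPKM in Δ*PoxKu70* (SD, n = 3 each), a log2 fold change of 1.26 (standard error 0.132).

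On the lower side, *POX08034* belongs to GH114, a family of endo-α-1,4-polygalactosaminidases, one of which acts on galactosaminogalactan in *Aspergillus fumigatus*. It averaged 67.9 ± 14.7 FPKM in Δ*PoxMKK1* and 189 ± 55.4 FPKM in Δ*PoxKu70* (SD, n = 3 each), a log2 fold change of -1.54 (standard error 0.231). *POX03025* is placed in GH109, whose founding members are bacterial α-N-acetylgalactosaminidases. Its InterPro entries are of the oxidoreductase type, and whether it acts as a hydrolase is not known from the sources used here. It averaged 92.6 ± 23.4 FPKM in Δ*PoxMKK1* and 218 ± 49.6 FPKM in Δ*PoxKu70* (SD, n = 3 each), a log2 fold change of -1.30 (standard error 0.242). The other lower genes belong to families known mainly from plant polysaccharides, although the study's column of CWDEs has no entry for them. *POX09801*, of GH43, a family of β-xylosidases and α-L-arabinofuranosidases, averaged 6.86 ± 1.49 FPKM in Δ*PoxMKK1* and 24.9 ± 4.998 FPKM in Δ*PoxKu70* (SD, n = 3 each), a log2 fold change of -1.92 (standard error 0.214). *POX07524*, of the α-L-rhamnosidase family GH78 with the rhamnose-binding module CBM67, averaged 22.1 ± 3.22 FPKM in Δ*PoxMKK1* and 51.02 ± 8.22 FPKM in Δ*PoxKu70* (SD, n = 3 each), a log2 fold change of -1.27 (standard error 0.169). The description of the 44 genes as acting outside the plant wall therefore does not suit all of them.

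**Figure D4:**
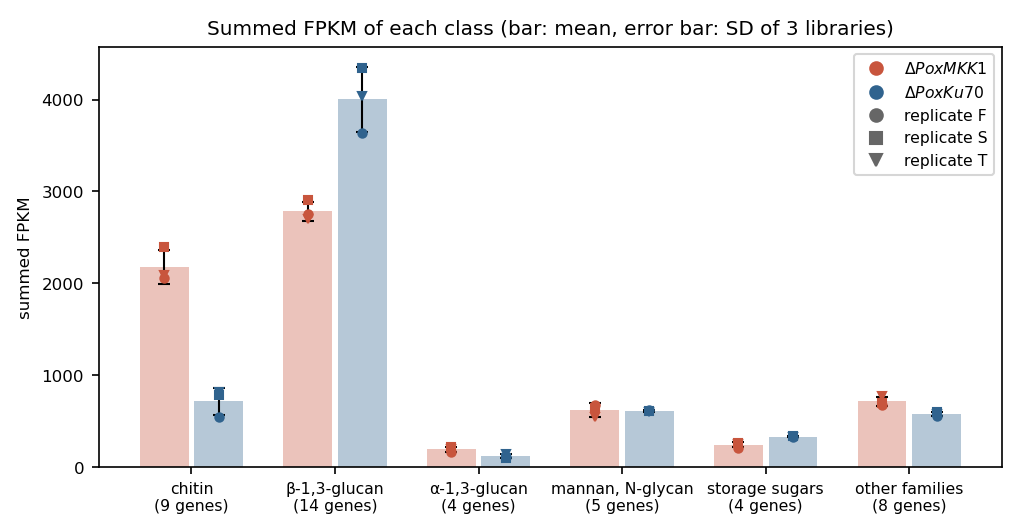
Summed FPKM of the genes of each class in each library (bars: means; error bars: SD of 3 libraries; marker shapes: replicates F, S and T; Δ*PoxMKK1* left, Δ*PoxKu70* right). The chitin class is higher in Δ*PoxMKK1* (2179 FPKM on average, against 715 FPKM in Δ*PoxKu70*) and the β-1,3-glucan class lower (2782 FPKM, against 4006 FPKM in Δ*PoxKu70*), while the mannan and N-glycan class is level. Single genes weigh heavily in these sums: *POX00089* held 57.1% of the chitin class in Δ*PoxMKK1*, and *POX07534* held 39.6% of the β-1,3-glucan class in Δ*PoxKu70*.

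Replicates differed more from each other in the control than in the mutant. The median coefficient of variation of FPKM between libraries over the 44 genes was 13.4% for Δ*PoxMKK1* and 21.1% for Δ*PoxKu70*, beside 9.29% for Δ*PoxMKK1* and 13.0% for Δ*PoxKu70* over all tested genes. It exceeded 50% for 0 of the 44 genes in Δ*PoxMKK1* and for 6 in Δ*PoxKu70*, with 110.0% for *POX09387* and 91.7% for *POX08171* at the top. Of all 8749 genes tested, 113 exceeded 50% in Δ*PoxMKK1* and 433 in Δ*PoxKu70*. Among the 27 genes that were higher in Δ*PoxMKK1*, replicate T was the highest control library for 23 and replicate S the lowest for 19. Over all 947 genes called higher, replicate T was the highest control library for 56.1% and replicate S the lowest for 53.0%. Of the 17 lower genes, 11 had their highest control value in replicate S, as did 46.99% of all 781 genes called lower. Without replicate T of Δ*PoxKu70* all 44 genes were still past edgeR's threshold, 27 higher and 17 lower. That fit called 1865 of 8826 genes tested, against 1728 of 8749 with every library, and the 44 genes had been selected on these libraries.

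The GH genes that the study did list as CWDEs had a different balance of directions. Of 37 such genes, selected on the same contrast, 6 were called higher and 30 lower in Δ*PoxMKK1* by edgeR, with a median log2 fold change of -1.66, beside 27 higher, 17 lower and a median of 1.49 for the 44 genes. Of all 1114 genes of the list, 587 were called higher and 465 lower, with a median of 1.14, and over all genes tested 947 were called higher and 781 lower, with a median of 0.01. Since all genes of the list were selected on these libraries, these differences were not tested.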

How the data were processed

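mRNA of Δ*PoxMKK1* and Δ*PoxKu70* (3 libraries each, BGISEQ-500) was analysed. The authors deposited, per gene and library, an expected count, which is not normalized, and an FPKM value, normalized by the authors for gene length and depth. The submitters' processing notes name BWA 0.7.10-r789, Bowtie2 2.1.0, RSEM 1.2.12 and DESeq2; reads were aligned to the HP7-1 genome. Groups and replicate letters were taken from the sample labels, which do not say how the replicates were grown, so the errors cover the spread between these libraries only, and GH families and InterPro entries from the study's list of differentially expressed genes. Whether counting used strand is not given in the sources used here, so overlapping genes are uncertain; none of the 44 genes had a fractional count. Of the gene identifiers, 0 matched the RefSeq table of HP7-1, so no positions are given.

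Expected counts were rounded and fitted over all genes with edgeR's quasi-likelihood test (edgeR 4.0.16, R 4.3.3; genes kept by filterByExpr, TMM scaling, no block, Benjamini-Hochberg adjustment over 8749 genes). The standard error is the absolute log2 fold change divided by the square root of F. All 44 genes passed the filter on low counts. The step was tested on simulated data. The members, classes and tests were chosen with earlier results of these data known. All 44 genes are named; values in every library are given for the chitin, β-1,3-glucan and α-1,3-glucan classes and for others with a change of 2 or more on the log2 scale. Alternatives were DESeq2 1.42.0, other scalings, limma 3.58.1 on log2 FPKM (pseudocount 0.5, 0.1 or 1; minimum mean FPKM 1), no filter, a replicate block, each library left out, an adjusted p below 0.01 and no fold minimum. Values of 0 were replaced by 0.01 FPKM where ratios of means and replicate-noise probabilities were formed. Every pair of libraries of a strain differed by more than counting noise. The library sizes were alike, so that depth limits mainly the genes with few control reads. The authors' own fold changes and probabilities were not used here, beyond having defined their list. *POX01583* and the genes just outside the thresholds were named after their values were seen.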

Additional observations from a re-analysis of the deposited data

How the results depend on the processing

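The 44 genes were selected on the same libraries, so passing again in refits of them was favoured in advance. The share of all tested genes that stayed past the threshold in every fit was not worked out. All 44 genes kept their direction under the 14 alternative fits, and 42 passed edgeR's, DESeq2's or limma's threshold in every one. The exceptions were *POX09387*, which was lost without each library other than replicate T of Δ*PoxKu70*, and *POX00251*, lost without replicate S of Δ*PoxKu70*; *POX09387* was also lost at an adjusted p below 0.01, which 26 higher and 17 lower genes passed. With no fold minimum 4044 genes were called, against 1728 with it and 1573 to 1865 with each library left out. With summed CPM in place of FPKM the log2 ratio was 0.91 in place of 1.61 for the chitin class and -0.63 in place of -0.45 for the storage sugar class; CPM is not divided by gene length. With each library left out, the log2 ratio of the mannan and N-glycan class lay between -0.04 and 0.12, so its sign is not settled. With the replicate block 1739 genes were called, 27 and 17 of them among the 44. Whether the letters pair the libraries is not settled. The correlations of same-letter deviations were 0.35 for F, 0.03 for S and 0.14 for T. Replicates F and S of Δ*PoxMKK1* correlated best with their own letter, S by a small margin. Replicate T of Δ*PoxMKK1* correlated best with replicate S of Δ*PoxKu70*, at 0.17. Depth limits the folds of *POX09621* and *POX08827*, which had 0 to 26 expected counts in the libraries of Δ*PoxKu70*: with a pseudocount of 1 FPKM in limma their log2 values were 5.41 and 5.11.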
